A study of Homo sapiens with 6 samples.

Results

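The genes described here are 10 members of the programme of epithelial-mesenchymal transition (EMT), read by name from a deposited table of 20061 rows. Of these, 6 encode EMT transcription factors (SNAI1, SNAI2, TWIST1, TWIST2, ZEB1 and ZEB2) and 4 are mesenchymal genes (FN1, SPARC, S100A4 and ACTA2). All 10 were among the 11952 rows that the authors had tested. The mesenchymal gene VIM was left out of the 10 because its row was marked as having too much data: it was listed at 7171 FPKM in the control group, and its 0 in the other group is no measurement.

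Polyadenylated RNA was sequenced in 6 samples of HEYA8, an established line of human ovarian cancer cells labelled as low grade serous carcinoma. In 3 of them (shLuciferase) the cells stably expressed, from a lentivirus, a short hairpin RNA (shRNA) directed at the reporter enzyme luciferase, for which human cells have no gene; this is the negative control. In the other 3 (shETS1) the hairpin targeted ETS1. This founding member of the ETS family of transcription factors binds DNA at sites with a GGAA core. All cells were held in puromycin at 5 µg per ml, which selects for the hairpin construct, and no other treatment was given. The labels name no hairpin sequence and do not say whether a line was 1 clone or how the cultures behind the samples were kept apart, so the deposited p-values may measure only technical spread. The table holds 1 FPKM value (fragment counts per unit of transcript length and of sequencing depth) per gene and group, as combined by the authors from 3 samples, so no values per sample, standard deviations or overlap between groups can be given.

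In an EMT, epithelial cells loosen their junctions and take on the shape and motility of mesenchymal cells. The zinc finger proteins of the SNAI and ZEB families and the basic helix-loop-helix proteins of the TWIST family bind E-boxes, repress epithelial genes such as CDH1 (E-cadherin), and accompany the expression of matrix and cytoskeletal genes. Ovarian carcinomas often show epithelial and mesenchymal features side by side.

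The 6 factors form 3 families of close relatives, so the sequences that they share are shown first, because reads from a shared stretch cannot be assigned to 1 gene. In the GENCODE 29 transcripts, the longest identical run of TWIST1 and TWIST2 was 23 bases, within the coding sequence of both. That of ZEB1 and ZEB2 was 20 bases, also coding in both, and that of SNAI1 and SNAI2 was 11 bases. No base is capitalised, since every base of each run is identical in both genes of the pair.
TWIST1 and TWIST2: gagcgccagcgcacccagtcgct
ZEB1 and ZEB2: tgcccaaactgcaagaaacg
No stretch of 50 bases from a TWIST, SNAI or ZEB1 transcript occurred in the transcript of any other gene on either strand, with 1 transcript taken per member. For ZEB2, 0.892% of its 50-base stretches occurred in its pseudogene ZEB2P1 and 3.93% on the opposite strand in ZEB2-AS1. ACTA2 shared no such stretch with another actin gene, its longest identical run being 35 bases with ACTC1, but 30.1% of its stretches lay opposite to ACTA2-AS1. SPARC had 6.93% opposite to CLMAT3, and FN1 and S100A4 had none. The library protocol in the labels includes nothing that marks the strand, so reads of these antisense partners may be counted with ZEB2, SPARC and ACTA2.

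Because the targeted gene encodes a DNA-binding factor, the 250 bases before the transcript start were searched in RefSeq promoters (build GRCh38.p14), which held 7 of the 10 members with 14 start sites. SNAI1, SNAI2 and TWIST1 had no entry. The ETS core GGAA, on either strand, was found in 13 of the 14 windows, against 92.7% of all 35116 promoter windows of the same length, so its presence does not set these genes apart. The longer CCGGAA, which contains the core, was found in 2 of the 14 windows (SPARC and 1 of 7 ZEB1 starts), against 14.5% of all windows. The E-box CAGGTG, a sequence bound by SNAI and ZEB proteins, was found in 3 of the 14 (2 ZEB1 starts and S100A4), against 17.5%. The palindrome TGACGTCA, the cAMP response element, was found in FN1 alone of these members, against 1.65% of all windows. The windows of the 3 members that have a mean level of at least 100 FPKM are printed, 5′ to 3′ on the gene's strand, with matches to GGAA (or TTCC, its reverse complement) and to TGACGTCA in capitals. They lie at chr2:215436069-215436318 on the minus strand for FN1, chr5:151686916-151687165 on the minus strand for SPARC and chr2:238847835-238848084 on the plus strand for TWIST2.
FN1: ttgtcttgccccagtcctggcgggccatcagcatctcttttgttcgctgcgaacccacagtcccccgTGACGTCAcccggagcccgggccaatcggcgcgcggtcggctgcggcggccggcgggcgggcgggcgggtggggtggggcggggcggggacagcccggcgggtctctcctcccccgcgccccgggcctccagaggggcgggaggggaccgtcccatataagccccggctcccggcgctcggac
SPARC: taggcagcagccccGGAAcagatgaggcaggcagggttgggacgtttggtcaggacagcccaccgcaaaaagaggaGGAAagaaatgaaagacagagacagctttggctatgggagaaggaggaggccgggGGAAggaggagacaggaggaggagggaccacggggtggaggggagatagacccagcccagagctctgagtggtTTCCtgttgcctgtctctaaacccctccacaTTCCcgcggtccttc
TWIST2: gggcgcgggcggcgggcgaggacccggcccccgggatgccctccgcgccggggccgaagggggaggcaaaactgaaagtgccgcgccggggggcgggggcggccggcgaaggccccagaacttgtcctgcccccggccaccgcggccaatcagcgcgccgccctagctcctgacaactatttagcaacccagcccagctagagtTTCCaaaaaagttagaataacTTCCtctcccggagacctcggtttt
The FN1 window held no GGAA, that of SPARC held 5 and that of TWIST2 held 2, the last all on the opposite strand. A match is a run of letters and not a measured binding site.

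The targeted gene was examined before the members. The level of ETS1 fell by 56.9% from 41.4 FPKM in the control to 17.9 FPKM, and its q-value (a p-value adjusted over all tested genes) in the authors' deposited table was 0.00964. A gene is called changed here if its q-value there does not exceed 0.05, a limit that 97 of the 11952 tested genes reached (65 higher and 32 lower in shETS1). As to the label of the cells, the ovarian lineage factor PAX8 was at 79.7 and 76.8 FPKM and the simple epithelial keratin KRT18 at 2044 and 1498 FPKM in shLuciferase and shETS1. The deposited locus of KRT18 is also that of KRT8, so its reads are uncertain. EPCAM was at 1.71 and 1.82 FPKM and MUC16 was near 0. Of 9 fibroblast markers, 7 were under 1 FPKM in both groups, COL3A1 and DCN were listed at 0 in both, and the summed level was 6.04 FPKM in shLuciferase and 10.3 FPKM in shETS1. All of 7 leukocyte markers other than CD68 and LAPTM5 were under 1 FPKM in both groups, and PTPRC, TYROBP and CD3E were listed at 0. CD68 was at 48.5 and 47.1 FPKM and LAPTM5 at 2.82 and 1.36 FPKM. Of 3 tested endothelial markers CDH5 was called and lower (17.6 to 5.00 FPKM). The other tested ones were not called: TIE1 was at 164 and 122 FPKM and ROBO4 at 21.0 and 12.8 FPKM. Of the 7 endothelial markers found, 4 (VWF, KDR, CLDN5 and EMCN) were under 1 FPKM in both groups. The summed level of the 7 was 204 FPKM in shLuciferase and 140 FPKM in shETS1. Of 5 tested mesothelial markers LRRN4 was called and lower (1.39 to 0.551 FPKM). The most abundant mesothelial marker, MSLN, was at 17.9 and 26.5 FPKM and not called, and the summed level of the 6 listed was 26.6 FPKM in shLuciferase and 33.9 FPKM in shETS1. None of 5 tested ovarian lineage markers was called. At an unadjusted deposited p under 0.05 there was 1, SOX17, against 6.94% of all tested genes. SOX17 was at 1.15 and 2.38 FPKM (q-value 0.110 in the authors' deposited table). In bulk RNA, fewer cells of a type and less RNA per cell cannot be told apart.

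None of the 10 members was called changed after ETS1 knockdown by the authors' Cuffdiff comparison, where 0.812% of all tested genes were called. At an unadjusted deposited p under 0.05 there was 1 of 10 (SNAI2), against 6.94% of all tested genes. No member was called either at a q-value of up to 0.1, as 1.26% of tested genes were, or with p-values adjusted only over genes that average 1 FPKM or more, where 0.768% were. In 9 of the 10 the level in shETS1 was the higher, and SNAI1 was the exception. Over all tested genes with a mean of at least 1 FPKM (10676 genes), 52.5% had a log2 fold change above 0. The median log2 fold change of the 10 was 0.22 and that of all those genes 0.02. The members' median size of change, regardless of sign, was 0.29 log2 units against 0.18 for all those genes. The order of the 10 levels was the same in both groups, from FN1, the highest, through SPARC, TWIST2, ACTA2, TWIST1, ZEB1, SNAI2, S100A4 and ZEB2 to SNAI1. With no spread per gene, which neighbours in this order differ cannot be said.

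**Figure D1:**
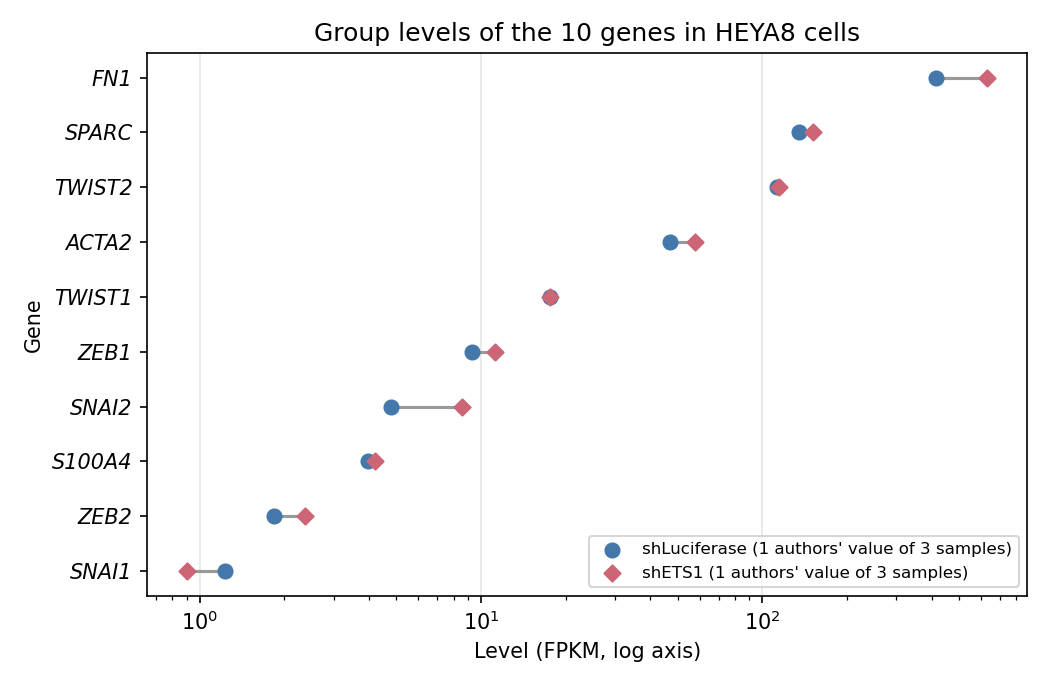
Level of each of the 10 genes (horizontal log axis, FPKM) in shLuciferase (blue circles) and shETS1 (red diamonds), ordered by the shLuciferase level; each point is 1 value that the authors made from 3 samples, so there are no error bars. The levels run from 0.904 FPKM (SNAI1 in shETS1) to 632 FPKM (FN1 in shETS1), and only for SNAI1 does the diamond lie to the left of the circle.

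SNAI2, also known as Slug, is a zinc finger repressor of E-cadherin and of other junction genes. It had the largest difference of the 10 members. Its level (locus chromosome 8, 49830239 to 49833999, hg19) was 4.79 FPKM in shLuciferase and 8.56 FPKM in shETS1, 1.79-fold higher. The authors' deposited table gives a log2 fold change of 0.84, a p-value of 0.00145 and a q-value of 0.110, so it was not called. In size this change exceeded 97.2% of those of all tested genes, and it lay just below the smallest change called at its level, which was 1.85-fold among tested genes with a mean of 5 to 20 FPKM. Of 30 other tested genes within a factor of 2 of its mean level and within 0.05 log2 units of its absolute change, 1 was called, and their median deposited p was 0.0027. The tested genes whose levels in both groups lay nearest to those of SNAI2 (Euclidean distance on the log2 scale over the 2 groups) were ARNTL2, a circadian transcription factor at 4.88 and 8.60 FPKM, KDELC2 at 5.14 and 8.69 FPKM, and KCNK3, a potassium channel at 4.79 and 9.23 FPKM. None of these 3 was called, with q-values of 0.0735, 0.129 and 0.0735 in the authors' deposited table. Likeness over 2 group values is a likeness of level and fold only.

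SNAI1, or Snail, the best known repressor of CDH1, was the least abundant member. Its shLuciferase level was 1.23 FPKM and its shETS1 level 0.904 FPKM (locus chromosome 20, 48599513 to 48605420, hg19). The log2 fold change was -0.44, and the authors' deposited table gives a p-value of 0.203 and a q-value of 1.00. The values of SNAI1 and SNAI2 thus lay on opposite sides of 0, and the difference between the changes was not tested. The level of SNAI2 was 3.90 times that of SNAI1 in shLuciferase and 9.47 times in shETS1. SNAI1 ranked low among the tested genes, above 13.9% of them in shLuciferase, whereas SNAI2 lay above 38.1%. At 1 to 5 FPKM, genes with a deposited p between 0.04 and 0.06 had a median change of 1.49-fold, and SNAI1 differed 1.36-fold.

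The TWIST factors, basic helix-loop-helix proteins first known from mesoderm formation, were the most abundant of the 6 and differed least between the groups. TWIST2 (locus chromosome 2, 239756673 to 239795893, hg19) measured 113 FPKM in shLuciferase against 115 FPKM in shETS1, above 92.4% of tested genes in the control. Its log2 fold change was 0.03, with a p-value of 0.915 in the authors' deposited table. TWIST1 (locus chromosome 7, 19155091 to 19157295, hg19) was at 17.6 FPKM in both groups. Its log2 fold change of 0.00 was smaller in size than those of all but 0.761% of tested genes, and its p-value in the authors' deposited table was 0.995. TWIST2 stood at 6.43 times the level of TWIST1 in shLuciferase and 6.55 times in shETS1. As the printed 23-base run shows, the paralogues share only short stretches, and no stretch of 50 bases. A missed threshold does not show that the levels were equal: genes with a deposited p between 0.04 and 0.06 had changed by a median of 1.42-fold at 5 to 20 FPKM, the range of TWIST1, and by 1.39-fold above 100 FPKM, that of TWIST2.

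ZEB1 and ZEB2 are large factors with zinc fingers at both ends and a homeodomain-like middle part, and repress CDH1 and genes of cell polarity. ZEB1 (locus chromosome 10, 31607424 to 31818742, hg19) measured 9.31 FPKM in shLuciferase against 11.2 FPKM in shETS1, 20.7% higher. ZEB2 (locus chromosome 2, 145141942 to 145277958, hg19) was at 1.84 FPKM and 2.37 FPKM, 29.2% higher. Neither was called, with p-values of 0.274 and 0.311 and a q-value of 1.00 for both in the authors' deposited table. ZEB1 was the main ZEB transcript in both groups, at 5.07 times the level of ZEB2 in shLuciferase and 4.74 times in shETS1.

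FN1 encodes fibronectin, a matrix glycoprotein that cells bind through integrins and that is widely used to mark an EMT. It was the most abundant of the 10 genes and had the second largest difference. Its level (locus chromosome 2, 216225179 to 216300791, hg19) was 415 FPKM in shLuciferase and 632 FPKM in shETS1, 52.5% higher, above 98.0% and 98.7% of tested genes. The log2 fold change was 0.61, the p-value 0.154 and the q-value 0.978 in the authors' deposited table. That p-value was large for so abundant a gene. The 4 other tested genes within a factor of 2 of its mean level and within 0.05 log2 units of its absolute change had p-values of 0.0074 to 0.124, all below that of FN1, and none of them was called. GENCODE 29 lists 27 transcripts for FN1. Whether the number of transcripts or the spread between the samples moves with this p-value was not tested.

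SPARC, a collagen-binding matricellular glycoprotein, measured 135 FPKM in shLuciferase against 152 FPKM in shETS1 (locus chromosome 5, 151041009 to 151066517, hg19). The difference was 12.8%, with a p-value of 0.486 in the authors' deposited table. S100A4, a small calcium-binding protein also called fibroblast-specific protein, was at 3.96 and 4.19 FPKM (locus chromosome 1, 153516095 to 153518282, hg19), with a p-value of 0.818 there. In shLuciferase its level lay below those of 8 and above those of 7 of the 15 other S100 genes listed. The most abundant of these were S100A16 at 1405 FPKM, S100A11 at 1384 FPKM and S100A6 at 1269 FPKM. ACTA2, the smooth muscle actin of myofibroblasts, measured 46.9 FPKM in shLuciferase against 57.8 FPKM in shETS1, 23.1% higher, with a p-value of 0.349 in the authors' deposited table. Its deposited locus (chromosome 10, 90640026 to 90775542, hg19) is also that of FAS and STAMBPL1, so its reads are uncertain. FAS, a death receptor, was at 9.14 and 9.93 FPKM and STAMBPL1, a deubiquitinase, at 6.24 and 3.41 FPKM, and neither was called. No other member had a locus that overlapped another row of the table.

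**Figure D2:**
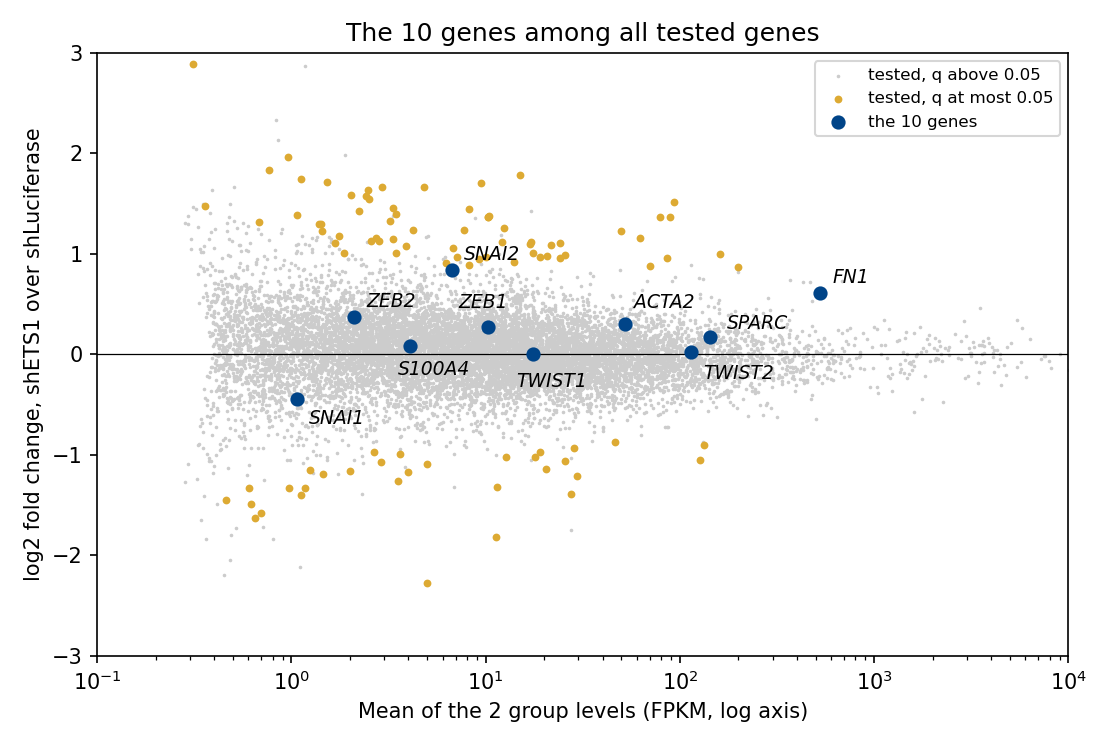
The vertical axis is the log2 fold change of shETS1 over shLuciferase, plotted against the mean of the 2 group levels (horizontal log axis, FPKM) for 11947 tested genes, with the 10 genes in blue, other tested genes in grey and genes with a deposited q-value of at most 0.05 in yellow. Another 5 tested genes, 1 of them called, have no finite fold or lie outside the axes; the 10 genes lie inside the grey band or at its upper edge, with SNAI2 at 0.84 and FN1 at 0.61 the farthest above 0.

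Fold changes across the table were related to the base composition of transcripts, and the members differ in that property. Across 9736 genes for which GC content was known, Spearman's rho between it and the log2 fold change was -0.46, a description across genes that share libraries and are not replicates. The ZEB transcripts were among the poorest in GC (39.1% for each), in the lowest of 10 equal groups, whose median log2 fold change was 0.25. With a cubic trend on GC content removed, the log2 fold change of ZEB1 went from 0.27 to 0.07 and that of ZEB2 from 0.37 to 0.17. SNAI2, at 41.8% GC, went from 0.84 to 0.69, and FN1, at 50.2%, stayed at 0.61. The GC-rich TWIST1 (57.2%) and TWIST2 (57.0%) went to 0.10 and 0.12. The median of the 10 members fell from 0.22 to 0.13 by this. SNAI1 was the only member under 1 FPKM in a group, and with 1 FPKM added to both levels its log2 ratio was -0.23 in place of -0.44.

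**Figure D3:**
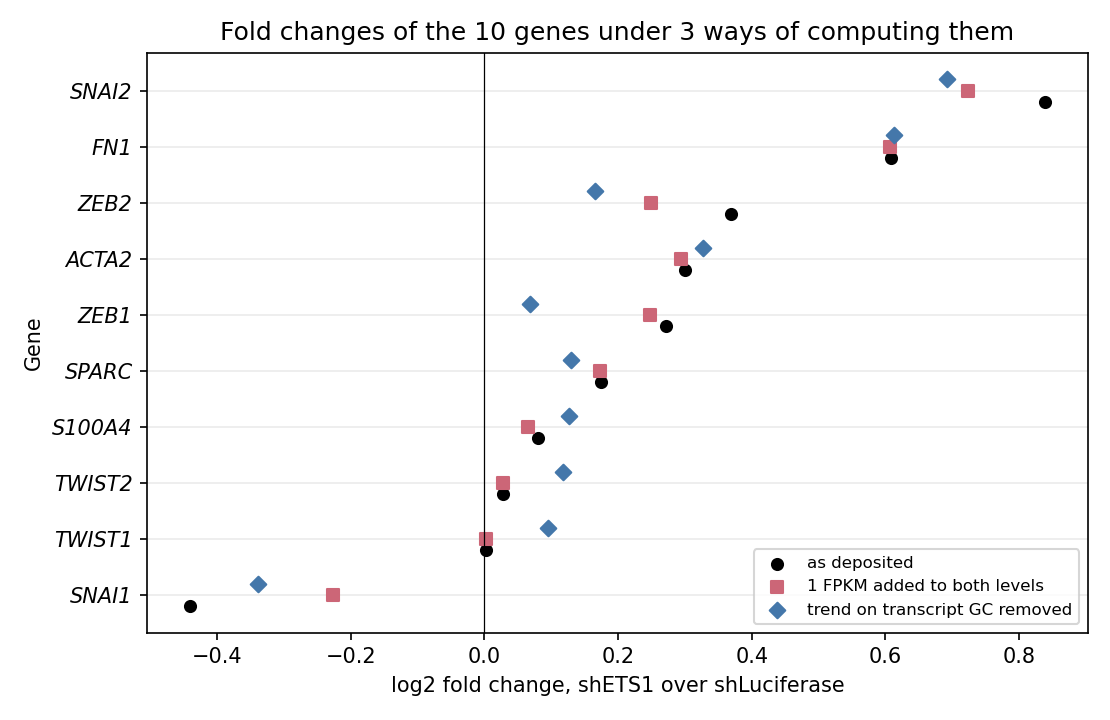
The horizontal axis is the log2 fold change of shETS1 over shLuciferase, drawn for each of the 10 genes as deposited (black circles), with 1 FPKM added to both levels (red squares) and with the trend on transcript GC content removed (blue diamonds). SNAI2 lies highest in all 3 (0.84, 0.72 and 0.69), SNAI1 is the only gene below 0 in each, and the ZEB genes move most towards 0 with the GC trend removed.

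Related genes were followed through 7 lists, set beside the same background of 0.812% called among all tested genes. Among partner and related EMT factors, 1 of 15 tested genes was called. This was SOX9, a factor of progenitor cells and of cartilage, which rose from 2.29 to 4.61 FPKM (2.01-fold, q-value 0.0445 in the authors' deposited table). The most abundant of that list, FOSL1, ID1 and TCF3, were not called. The AP-1 subunit FOSL1 was at 703 and 756 FPKM, ID1, an inhibitor of helix-loop-helix factors, at 97.9 and 102 FPKM, and TCF3, an E-protein that pairs with TWIST factors, at 46.1 and 38.9 FPKM. The third SNAI gene, SNAI3, was at 0.660 and 0.474 FPKM. For the 12 genes of this list that average 1 FPKM or more, the median log2 fold change was 0.16.

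None of 24 tested corepressors, chromatin partners and stability regulators of these factors was called, with 1 at an unadjusted p under 0.05. The corepressor CTBP1, which ZEB proteins recruit, was at 88.1 and 77.6 FPKM, the chromatin remodeller SMARCA4 at 92.4 and 71.4 FPKM, and LOXL2, a lysyl oxidase that binds Snail, at 51.6 and 55.0 FPKM. The median log2 fold change of this list was 0.02, equal at this precision to that of all genes, and -0.06 with the GC trend removed.

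Of 35 listed other mesenchymal genes, 10 were under 1 FPKM in both groups, and 4 of these were listed at 0 in both. Among the 25 tested, 2 were called higher and none was called lower: COL1A1 (1.29 to 3.75 FPKM) and COL6A1 (44.0 to 114 FPKM). The authors' deposited table gives both a q-value of 0.00964. At an unadjusted p under 0.05 there were 7, against 6.94% of all tested genes. The 24 with a mean of at least 1 FPKM had a median log2 fold change of 0.40 (0.35 with the GC trend removed), with 20 above 0 and 4 below. The membrane protein gene EMP3 was at 631 and 732 FPKM and the receptor kinase AXL at 232 and 256 FPKM. CDH2, the N-cadherin of mesenchymal cells, was at 18.1 and 17.9 FPKM. COL1A1 is also 1 of the fibroblast markers whose summed level is given above. The part of other cells in its rise was not tested.

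Of 38 listed epithelial genes and epithelial regulators, 19 were tested, of which 2 were called and 4 had an unadjusted p under 0.05. CDH1 was at 0.00572 FPKM in shLuciferase and listed at 0 in shETS1. The epithelial regulators GRHL2, OVOL1 and OVOL2 had values of 0 in each group. Of the 2 called genes, 1 was higher in shETS1: the claudin gene CLDN1 of tight junctions. It went from 16.4 to 32.0 FPKM (q-value 0.0242 in the authors' deposited table). The other called gene, PKP2, a desmosomal plakophilin, was lower and went from 1.72 to 0.774 FPKM (q-value 0.0407 there). Adding 1 FPKM to both levels took the log2 ratio of PKP2 from -1.15 to -0.62. The abundant keratins KRT18, KRT8 and KRT7 were not called: KRT8 was at 1913 and 1288 FPKM and KRT7 at 1187 and 910 FPKM. KRT8 and KRT18 have the same deposited locus, so the reads of both are uncertain. The 14 epithelial genes that average 1 FPKM or more had a median log2 fold change of -0.32 (-0.20 with the GC trend removed), with 4 above 0 and 10 below.

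**Figure D4:**
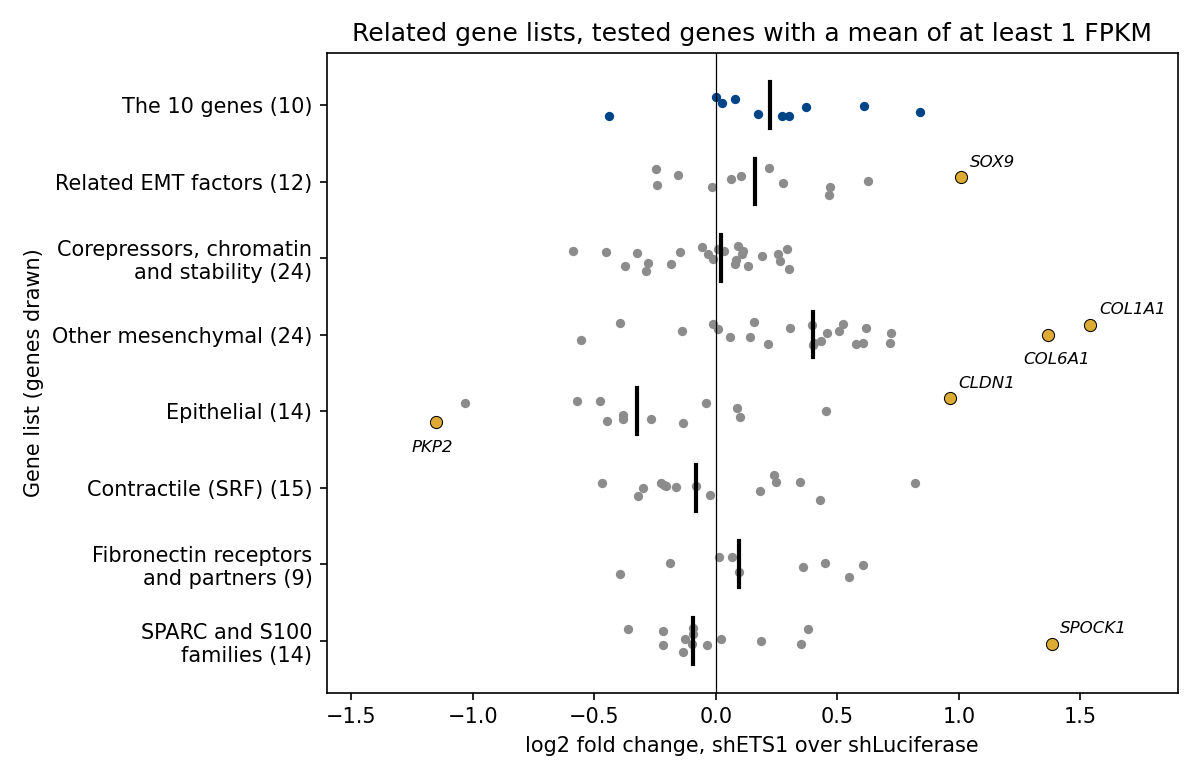
The horizontal axis is the log2 fold change of shETS1 over shLuciferase, drawn for the 10 genes (blue) and of 7 related lists (grey), for tested genes with a mean of at least 1 FPKM; black bars are medians and yellow points are genes with a deposited q-value of at most 0.05, with their names. The medians are highest for other mesenchymal genes (0.40) and lowest for epithelial genes (-0.32), and none of the 10 genes is yellow.

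The genes closest to the members' products in function or family are given last. None of 11 tested fibronectin receptors and fibril partners was called, with 2 at an unadjusted p under 0.05. ITGB1, the beta chain of the fibronectin receptor, was at 100 and 153 FPKM (q-value 0.424 in the authors' deposited table), and its alpha partner ITGA5 at 69.3 and 52.7 FPKM. Both genes are also on the list of other mesenchymal genes, so the counts and medians of these lists are not separate. The cross-linking enzyme TGM2 was at 718 and 630 FPKM and the syndecan SDC4 at 62.0 and 79.5 FPKM. On the list of SPARC and S100 families, which also holds a receptor and a myosin of neither family, 1 of 14 tested genes was called. SPOCK1, a testican proteoglycan related to SPARC, rose from 0.591 to 1.54 FPKM (q-value 0.0178 in the authors' deposited table). Its log2 ratio of 1.38 was 0.68 once 1 FPKM was added. The 3 abundant S100 genes named above were at 1317 (S100A16), 1078 (S100A11) and 1156 FPKM (S100A6) in shETS1 and were not called. Of 18 tested contractile and cytoskeletal genes, several of which are, like ACTA2, known targets of serum response factor, none was called and 1 (TPM1) had an unadjusted p under 0.05. TPM1, a tropomyosin named here after its value was seen, measured 144 FPKM in the control against 254 FPKM, and the authors' deposited table gives a q-value of 0.0735. The cytoplasmic actins ACTB and ACTG1 were at 6482 and 5537 FPKM and at 2626 and 1896 FPKM, and TAGLN2 at 661 and 784 FPKM. The median log2 fold change was 0.10 for the fibronectin list, -0.09 for the SPARC and S100 list and -0.08 for the contractile genes. With the GC trend removed these medians were 0.20, 0.01 and 0.03, so the last 2 changed sign. The last of them covers the 14 contractile genes that have a GC value.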

How the data were processed

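Polyadenylated RNA of 3 shLuciferase and 3 shETS1 samples was sequenced. The submitters' processing notes name Cufflinks 2.1.1, TopHat2 2.0.7, SAMtools 0.1.18, Bowtie2 2.0.6 and the build hg19, without roles; the annotation is not given in the sources used here. The authors combined the samples of a group into 1 FPKM value per gene, in a table with Cuffdiff's columns, per the file headers. The authors' log2 fold change, p-value and q-value per gene were used as deposited, and their test score was left out. Recomputing q by the Benjamini-Hochberg method from the p-values of the 11952 tested rows gave the authors' q within 5.16e-07, and no p was below 5e-05. A limma fit planned in case of values per sample was not possible, and FPKM do not give the depth. For all 10 members the log2 ratio of the 2 FPKM values lay within 0.001 of the authors' fold change.

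Members, lists and tests were chosen with earlier results of these data known. The named genes are the members, ETS1, VIM, genes that share a member's locus, up to 4 called and 3 of the most abundant tested genes per list, and the 3 genes nearest to the member with the largest change; CDH1, CDH2, GRHL2, OVOL1, OVOL2, SNAI3, ITGA5, TPM1 and the marker genes were named in addition, after their values were seen. A gene that the rule names is not reported here. GC content and shared stretches came from GENCODE 29 (GRCh38) transcripts by symbol, using for each the transcript that codes for most; 91.2% of tested genes averaging 1 FPKM or more, and all 10 members, had a value. The adjustment and trend code was tested on simulated data. Deposited hg19 coordinates had 1 added to the start. Python 3.11.15, pandas 2.3.3 and numpy 2.4.6 were used.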

Additional observations from a re-analysis of the deposited data

How the results depend on the processing

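Of 82 values recomputed under other settings, 74 kept their direction, their side of the threshold or their size. Many of these could not have moved, so the count does not measure robustness. Adding the same amount to both levels cannot reverse a sign, and readjusting p-values leaves a fold change as deposited. No q-value was recomputed for altered fold changes, and all 10 members pass the filter of 1 FPKM. No member was called at a q-value of at most 0.1, nor with p-values adjusted only over genes that average 1 FPKM or more. TWIST1 was the only member to change sign, at -0.012 when fold changes were centred on the median of all tested genes that average 1 FPKM or more. The members' median log2 fold change, 0.22 as deposited, was 0.27 for those that average 5 FPKM or more, 0.21 with 1 FPKM added to both levels, 0.21 when centred and 0.13 with the GC trend removed. At a q-value of at most 0.1, 1 contractile gene (TPM1) and 1 leukocyte marker (LAPTM5) were called, against 0 for each at 0.05, and with the adjustment over genes that average 1 FPKM or more, 0 mesothelial markers were called in place of 1 (LRRN4, whose mean is below that level). No paired analysis was possible because the table gives 1 value per group and no value per replicate; leaving out a replicate could not be done for the same reason. Depth is unknown, so no detection limit is given. The smallest change among called genes was 1.83-fold above 100 FPKM (4 called), 1.96-fold at 1 to 5 FPKM (37 called) and 2.49-fold below 1 FPKM (12 called). These are observed minima and not limits of the authors' test.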
